A study of Mus musculus with 48 samples.

Results

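The genes described are the 10 that carry the core of bile acid production and movement in the liver: Cyp7a1, Cyp8b1, Cyp27a1, Cyp7b1, Slc27a5, Baat, Abcb11, Abcb4, Slc10a1 and Fgfr4. They were chosen by symbol, 1 line per Ensembl gene, from the 11843 genes of the liver table and the 15541 genes of the 6 tissue tables, and all 10 were listed and tested in liver. The libraries came from male C57Bl6 mice made obese by a high fat diet, which had either Roux-en-Y gastric bypass (RYGB) or a sham operation. RYGB connects a stomach pouch directly with the jejunum, and most of the stomach and the duodenum no longer receive food. Both groups then received a liquid elemental diet, were examined 9 days after surgery and were fasted overnight before they were killed in the morning. The treatment label also names a return to the high fat diet, and the labels leave unclear whether that came before the liver was taken. Liver had 4 RYGB and 4 sham libraries. Whether the sham mice were matched to the RYGB mice for weight or food intake is not given in the sources used here. The labels number the libraries within a group without naming animals, so the tests measure the spread between these libraries.

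The liver makes bile acids from cholesterol, keeps them circulating between liver and gut, and adjusts their synthesis to the amount that returns. The classic pathway opens with Cyp7a1, its rate-limiting enzyme, and Cyp8b1 decides how much cholic acid is made. The alternative pathway opens with Cyp27a1, and Cyp7b1 hydroxylates the oxysterols that it yields. Slc27a5 activates bile acids with coenzyme A, and Baat then joins them to taurine or glycine. Abcb11 exports bile salts into bile, Abcb4 moves phosphatidylcholine into bile beside them, and Slc10a1 takes bile salts back up from portal blood. Fgfr4, with its partner Klb, receives the ileal hormone Fgf15, which is known to restrain Cyp7a1.

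Levels are given in CPM as deposited, a gene's counts scaled to the total of its library. Changes are differences of log2(CPM + 1), RYGB minus sham, fitted with limma, and p-values are adjusted by Benjamini-Hochberg over the 11807 genes tested in liver. A gene was counted as changed at an adjusted p under 0.05. By that rule 1016 liver genes (8.61%) changed, of which 830 rose (7.03%) and 186 fell (1.58%). The median change of all tested genes was 0.13. When libraries were rescaled by their median ratio to the average library, that median became -0.01 and the split 561 higher and 372 lower. The sequencing depth is unknown. All 14 hepatocyte markers were listed, with a summed level between 99406 and 144757 CPM, and none of the 5 skeletal muscle markers was.

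Cyp7b1 was the only 1 of the 10 genes that changed in RYGB liver, and it fell 2.20-fold. The share of 1 in 10 stands beside 8.61% of all genes. Of the other genes, Cyp7a1 and Abcb4 had higher fitted levels and Slc27a5, Slc10a1 and Cyp27a1 lower ones without passing the test, while the estimates for Cyp8b1, Baat, Abcb11 and Fgfr4 were between -0.14 and 0.01. An unadjusted p under 0.05 was reached by 6 of the 10 genes, 2 with a higher and 4 with a lower level, beside 26.9% of all genes tested. The median change over the 10 genes was -0.09, beside 0.13 over all genes. With libraries scaled by the median ratio these were -0.24 and -0.01, and 2 of the 10 estimates were then above 0 in place of 4.

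**Figure D1:**
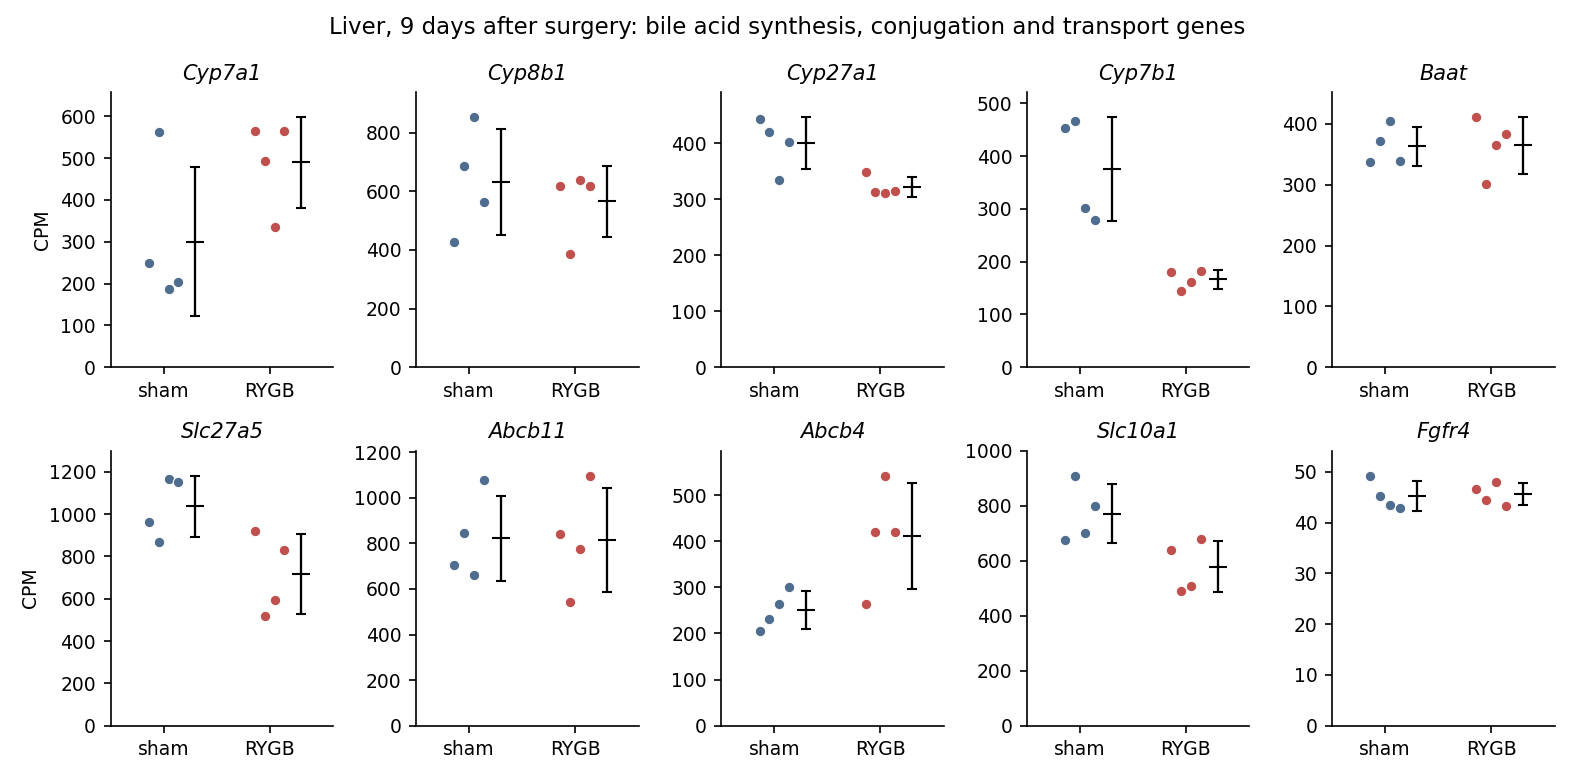
Level of each of the 10 genes in the 8 liver libraries, in CPM on axes that start at 0. Points are single libraries, numbered 1 to 4 from left to right within a group, and the bar beside them is the mean with its SD. Cyp7b1 is the only panel in which every RYGB point lies below every sham point.

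Per kilobase of annotated exons, which allows genes to be compared, the highest mean level in sham liver was that of Slc27a5, with 425 CPM per kilobase. Slc10a1 followed with 350.4, Cyp8b1 with 324, Baat with 187, Cyp27a1 with 184, Cyp7b1 with 173 and Abcb11 with 159.9. Below these stood Cyp7a1 with 72.0, Abcb4 with 26.7 and Fgfr4 with 12.8 CPM per kilobase. The ranges of the first 3 genes overlapped one another in the sham libraries, and so did those of Baat, Cyp27a1, Cyp7b1 and Abcb11. Cyp7a1 overlapped Cyp7b1 and Abcb11 only, while Abcb4 and Fgfr4 each lay apart. All annotated exons of a gene were counted, so a gene is set lower where its main transcript is shorter than their sum. In RYGB liver Cyp7a1, with 117 CPM per kilobase, stood above Cyp7b1, with 76.8, the reverse of their order in sham liver.

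Cyp7a1 (ENSMUSG00000028240, chr4:6265612-6275633, minus strand, GRCm38) had 249.2, 563.8, 186.6 and 202.8 CPM in sham livers 1 to 4. In RYGB livers 1 to 4 it had 564.8, 494.0, 335.8 and 566.1 CPM. The groups overlapped through sham 2 alone, whose level was close to those of RYGB 1 and RYGB 4. The log2 change was 0.83 ± 0.31 (SE), with a 95% confidence interval of 0.13 to 1.52 and an adjusted p of 0.121 by limma. Without sham 2 the change was 1.18 ± 0.20 with an adjusted p of 0.0197 by limma, the only 1 of the 8 fits with 1 liver left out that passed. Without sham 3 it was 0.65 (adjusted p 0.239), and after scaling by the median ratio 0.68 (adjusted p 0.229 by limma). Sham livers varied more for Cyp7a1 than RYGB livers did, with coefficients of variation of 59.0% and 22.1%. The larger sham spread came from sham 2, as the other sham livers lay between 186.6 and 249.2 CPM.

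Cyp8b1 (ENSMUSG00000050445, chr9:121914356-121916305, minus strand) had 427.2, 685.0, 853.0 and 562.1 CPM in sham and 618.1, 384.7, 638.7 and 619.0 CPM in RYGB livers. Its levels overlapped widely, with RYGB 2 below and sham 3 above all the others. The log2 change was -0.14 ± 0.23 (SE), the 95% confidence interval -0.64 to 0.36 and the adjusted p 0.711 by limma. The ratio of Cyp8b1 to Cyp7a1, the enzymes that act in turn on the way to cholic acid, was between 1.21 and 4.57 in sham livers and between 0.779 and 1.90 in RYGB livers, and overlapped.

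Cyp27a1 (ENSMUSG00000026170, chr1:74713574-74737892, plus strand) was steady within the RYGB livers, with 349.0, 312.6, 310.5 and 314.6 CPM. The sham livers held 443.5, 420.2, 334.7 and 402.2 CPM, so that only sham 3 reached into the RYGB range. The log2 change was -0.31 ± 0.12 (SE; 95% confidence interval -0.57 to -0.05), and with an adjusted p of 0.121 it did not pass limma's test.

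Cyp7b1 (ENSMUSG00000039519, chr3:18071950-18243338, minus strand) had 453.5, 467.5, 302.1 and 279.6 CPM in sham livers and 179.5, 143.8, 160.9 and 181.6 CPM in RYGB livers. The groups did not overlap, as for 16.4% of all genes tested (3.05% with RYGB below sham), and the means were 376 ± 98.5 and 166 ± 17.7 CPM (SD, n = 4 and 4). The log2 change was -1.14 ± 0.18 (SE), with a 95% confidence interval of -1.53 to -0.74 and an adjusted p of 0.00666 by limma. The exact permutation test over the 8 livers, two-sided, gave p = 0.0286, the smallest that 4 against 4 allows. Within the 3 sequencing lanes, each with 1 or 2 libraries a group, the log2 difference was -1.38, -1.01 and -1.40. It kept its direction and passed the test in every alternative run on liver, with adjusted p between 0.000947 and 0.0246 by limma. After scaling by the median ratio the change was -1.29. A small nuclear RNA gene, Gm23686, lies within Cyp7b1 on the same strand.

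**Figure D2:**
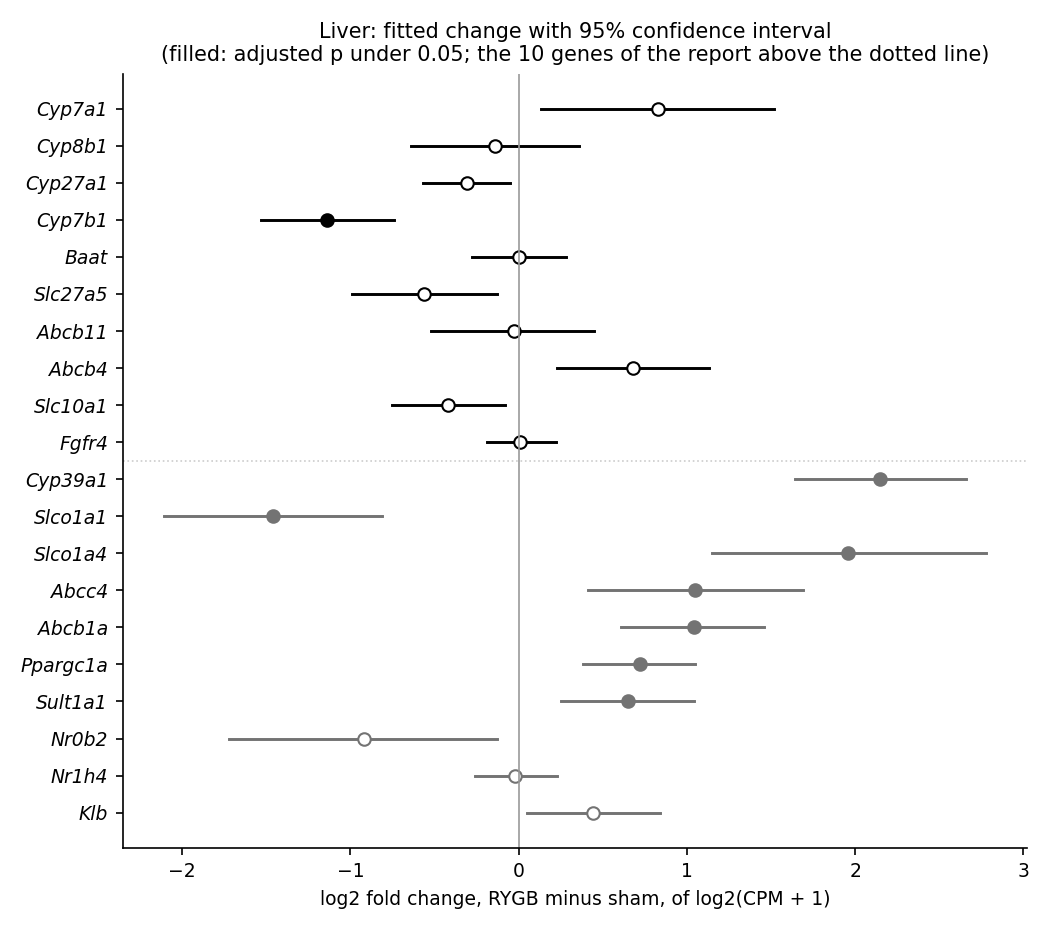
Fitted log2 change in liver, RYGB minus sham, of log2(CPM + 1), with its 95% confidence interval, for the 10 genes (black) and for other genes of the bile acid pathway (grey). Filled points have an adjusted p under 0.05. Among the 10 genes Cyp7b1 alone is filled, and among the others Cyp39a1 and Slco1a4 lie farthest to the right and Slco1a1 farthest to the left.

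Ratios within a library do not depend on its scaling and set the branches of the pathway beside each other. Cyp7a1 to Cyp7b1 was 0.55, 1.21, 0.618 and 0.725 in sham livers 1 to 4 and 3.15, 3.44, 2.09 and 3.12 in RYGB livers 1 to 4. Every RYGB liver thus held more Cyp7a1 than Cyp7b1 counts by a wider margin than any sham liver. Cyp7b1 to Cyp27a1, the later over the earlier enzyme of the alternative pathway, was 0.695 to 1.11 in sham and 0.46 to 0.577 in RYGB livers, without overlap. Cyp7a1 to Cyp27a1, the opening enzymes of the pathways, was 0.504 to 1.34 in sham and 1.08 to 1.80 in RYGB livers, with sham 2 inside the RYGB range. These ratios were chosen with the values known and are given as a description.

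**Figure D3:**
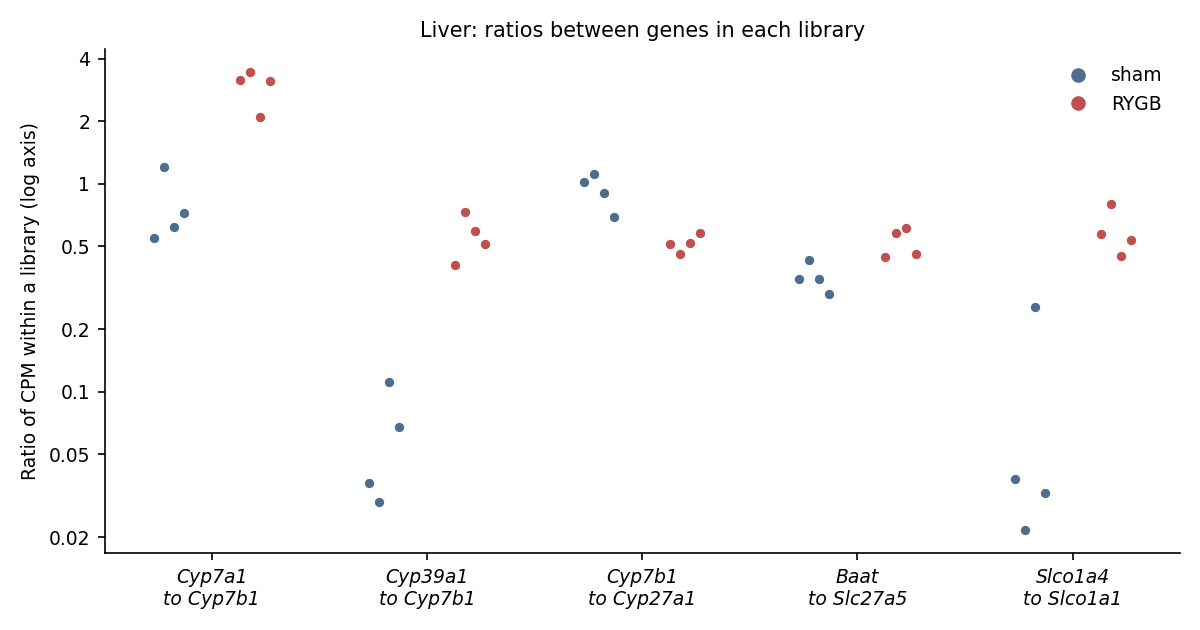
Ratios of the CPM of gene pairs within each liver library, on a log axis. Points are single libraries (4 sham, 4 RYGB). The 5 pairs shown are those in which the groups did not overlap, so their separation follows from that choice. The ratios Cyp8b1 to Cyp7a1, Cyp7a1 to Cyp27a1, Abcb4 to Abcb11 and Slc10a1 to Abcb11 overlapped and are not drawn. Cyp7a1 to Cyp7b1 is at most 1.21 in sham and at least 2.09 in RYGB livers.

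For conjugation, Slc27a5 (ENSMUSG00000030382, chr7:12988346-12998192, minus strand) had 963.2, 868.2, 1163.5 and 1152.6 CPM in sham livers. In RYGB livers it had 919.9, 519.6, 596.2 and 829.2 CPM, and RYGB 1 alone lay within the sham range. The log2 change was -0.56 ± 0.19 (SE; 95% confidence interval -0.99 to -0.13) with an adjusted p of 0.0944 by limma. Without RYGB 1 it was -0.69 with an adjusted p of 0.0400 by limma, and without RYGB 2 it was -0.42 with an adjusted p of 0.232. Of the 8 fits with 1 liver left out, only that without RYGB 1 passed. Baat (ENSMUSG00000039653, chr4:49489422-49506557, minus strand) had 336.9, 372.6, 404.7 and 339.4 CPM in sham and 410.7, 301.0, 364.6 and 383.0 CPM in RYGB livers. Its groups lay across each other, the log2 change was 0.00 ± 0.13 (SE) and the interval of -0.28 to 0.28 bounds a change in either direction. The ratio of Baat to Slc27a5 was 0.294 to 0.429 in sham and 0.446 to 0.612 in RYGB livers, and did not overlap.

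Of the canalicular exporters, Abcb11 (ENSMUSG00000027048, chr2:69238282-69342616, minus strand) had 705.4, 844.4, 663.2 and 1077.9 CPM in sham and 840.1, 542.1, 777.6 and 1098.1 CPM in RYGB livers. Both groups covered a wide and shared range, and the log2 change was -0.03 ± 0.22 (SE; 95% confidence interval -0.52 to 0.45; adjusted p 0.941 by limma). Abcb4 (ENSMUSG00000042476, chr5:8893717-8959231, plus strand) had 206.3, 230.9, 263.9 and 301.5 CPM in sham and 263.3, 419.9, 542.4 and 419.1 CPM in RYGB livers. RYGB 2, 3 and 4 were above all sham livers, and RYGB 1 lay within the sham range. The log2 change of Abcb4 was 0.68 ± 0.20 (SE; 95% confidence interval 0.23 to 1.13), and its adjusted p of 0.0624 by limma missed the threshold. Without RYGB 1 it was 0.88 with an adjusted p of 0.0116 by limma, and with the sequencing lane in the fit it was 0.70 with an adjusted p of 0.0450. After scaling by the median ratio it was 0.53 (adjusted p 0.105 by limma), and without RYGB 3 it was 0.53 (adjusted p 0.164). Of the 8 fits with 1 liver left out, 1 passed the test. Within lanes the log2 difference of Abcb4 was 0.19, 0.57 and 1.20, the smallest in the lane that held RYGB 1. A processed pseudogene, Gm17936, lies on the same strand within Abcb4, and an antisense gene, Gm13613, within Abcb11, so that reads in those stretches are uncertain.

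For uptake, Slc10a1 (ENSMUSG00000021135, chr12:80953183-80968705, minus strand) had 673.9, 910.0, 699.9 and 798.6 CPM in sham livers and 638.4, 490.0, 507.1 and 678.4 CPM in RYGB livers. The groups touched only between RYGB 4 and sham 1. The log2 change was -0.42 ± 0.15 (SE; 95% confidence interval -0.75 to -0.08) with an adjusted p of 0.108 by limma. The receptor Fgfr4 (ENSMUSG00000005320, chr13:55152640-55168759, plus strand) was the lowest and the steadiest of the 10 genes, with 42.8 to 49.3 CPM in sham and 43.2 to 48.0 CPM in RYGB livers. Its log2 change was 0.01 ± 0.09 (SE), and the interval ran from -0.19 to 0.22.

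Summed over the 10 genes, sham livers held 4508 to 5408 CPM and RYGB livers 3652 to 5132 CPM, in overlapping ranges. Cyp7b1 made up 5.42% to 10.1% of that sum in sham livers and 3.54% to 3.94% in RYGB livers. RYGB 2 had the lowest sum and was the lowest RYGB liver for 6 of the genes (Cyp8b1, Cyp7b1, Baat, Slc27a5, Abcb11 and Slc10a1). Without it Cyp7b1 still fell, by 1.07 on the log2 scale with an adjusted p of 0.013 by limma. Cyp7b1 remained the only gene of the 10 past the test, which 597 of 11779 genes passed in that fit. The median change over the 10 genes was then 0.03.

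The stretch before the start site was read for the genes with an entry in the RefSeq promoter table (GRCm38.p6), which were 6 of the 10. The 100 bases before the start are shown for the 3 that held a match to a motif of a factor known from promoters of these genes, with the match in capitals.

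Abcb11, chr2:69342617-69342716, minus strand: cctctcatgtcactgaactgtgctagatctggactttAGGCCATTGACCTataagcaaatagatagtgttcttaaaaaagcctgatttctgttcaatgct
Cyp8b1, chr9:121916306-121916405, minus strand: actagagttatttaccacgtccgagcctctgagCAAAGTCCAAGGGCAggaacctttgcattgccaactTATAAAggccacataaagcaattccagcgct
Slc10a1, chr12:80968706-80968805, minus strand: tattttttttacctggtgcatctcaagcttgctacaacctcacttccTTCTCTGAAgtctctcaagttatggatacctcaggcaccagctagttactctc

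The match in Abcb11 begins 63 bases before the start and reads AGGCCATTGACCT, a repeat of AGGNCA in inverted orientation of the kind bound by the bile acid receptor FXR. The repeat was found in 12 of 32851 promoter windows of 300 bases (0.0365%), searched on both strands as all motifs were. In Cyp8b1 the first capitals hold CAAAGTCCA (0.475% of windows), a motif of the hepatocyte factor HNF4, 67 bases before the start. It overlaps CAAGGNCA, a motif of LRH-1 (6.71% of windows), and TATAAA (13.6%) follows 31 bases before the start. In Slc10a1 the capitals mark TTCNNNGAA, a STAT motif (8.30% of windows), 53 bases before the start, and a TATAAA on the other strand lies 128 bases before it. A motif of HNF1 (0.0609% of windows) matched none of the 6 genes. A match is a description of these letters, and no binding was measured. The genes with these matches, Abcb11, Cyp8b1 and Slc10a1, did not pass the test in liver.

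Beyond the 10 genes, 54 further genes of bile acid synthesis, transport, regulation and detoxification were looked up, of which 50 were tested. The test was passed by 6 of them with a higher and 1 with a lower level, that is 7 of 50 beside 8.61% of all genes, and the median change was 0.12. Among 15 further synthesis genes 1 rose, among 14 transporters 3 rose and 1 fell, among 16 regulators 1 rose and among 5 detoxification genes 1 rose. After scaling by the median ratio 4 of the 7 passed (Cyp39a1, Slco1a4, Slco1a1 and Abcb1a).

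**Figure D4:**
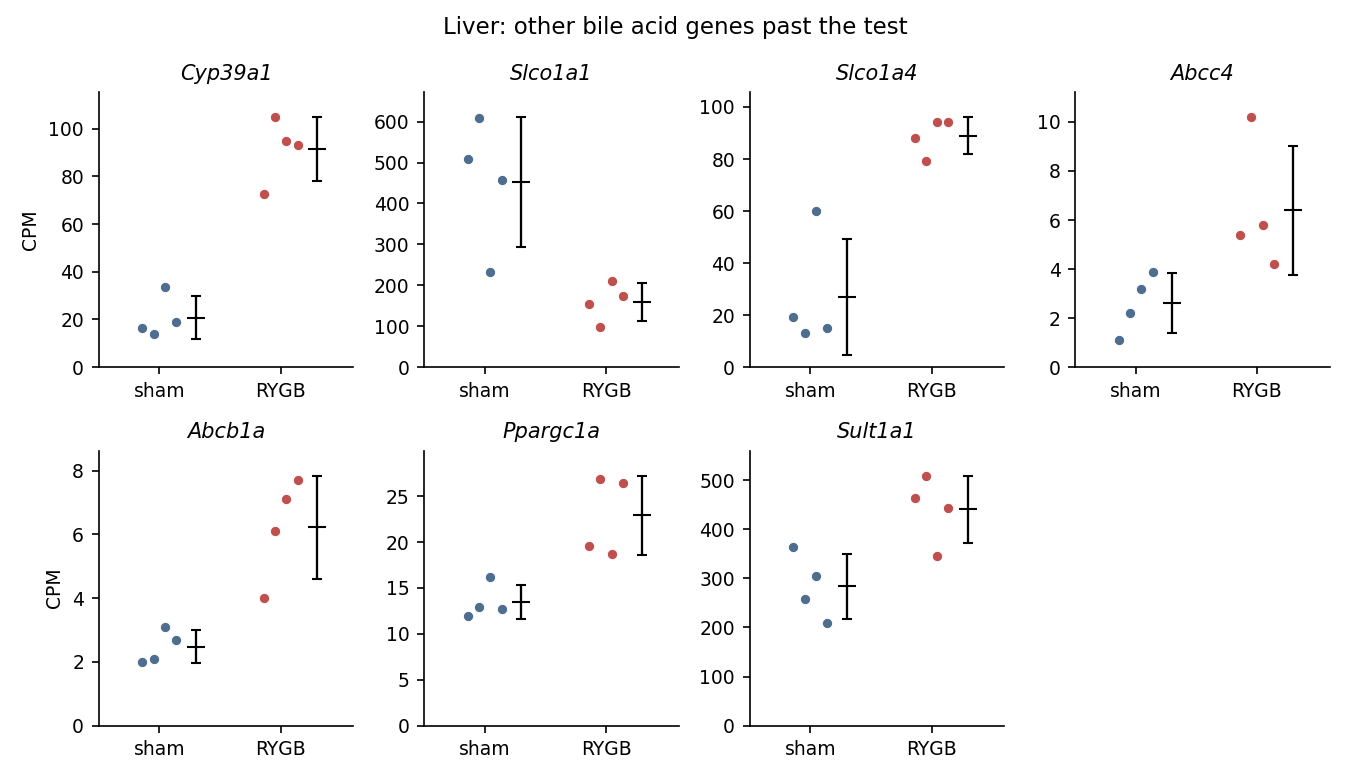
Level in the 8 liver libraries of the 7 further bile acid genes with an adjusted p under 0.05, in CPM on axes that start at 0, with the mean and SD beside the points. Points are numbered 1 to 4 from left to right within a group. Slco1a1 alone is lower in RYGB, the sham point nearest the RYGB range is sham 3 for Cyp39a1, Slco1a1 and Slco1a4, and only Sult1a1 overlaps. The genes were chosen by the test on these same values, and the groups do not overlap for 16.4% of all liver genes tested.

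Cyp39a1, another oxysterol hydroxylase of bile acid synthesis, had 16.5, 13.8, 33.8 and 18.9 CPM in sham and 72.7, 104.9, 95 and 93.0 CPM in RYGB livers. It rose 4.45-fold, with a log2 change of 2.15 ± 0.23 (SE) and an adjusted p of 0.00106 by limma. Every RYGB liver was above every sham liver, and the groups did not overlap for 16.4% of all genes tested. Within lanes the log2 difference of Cyp39a1 was 2.32, 2.01 and 2.44. Cyp39a1 and Cyp7b1, which both hydroxylate oxysterols, thus changed in opposite directions in the same libraries. The ratio of Cyp39a1 to Cyp7b1 was 0.0295 to 0.112 in sham and 0.405 to 0.729 in RYGB livers. Cyp2c70, the mouse enzyme of muricholic acid formation, had 516 ± 173 CPM in sham and 359.5 ± 108 CPM in RYGB livers (SD, n = 4 and 4; log2 change -0.51, adjusted p 0.218 by limma).

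Of 4 sinusoidal organic anion transporters, which also carry bile acids, Slco1a1 fell and Slco1a4 rose. Slco1b2 (log2 change -0.03, adjusted p 0.943 by limma) and Slco2b1 (log2 change -0.31, adjusted p 0.249) did not pass the test. Slco1a1 had 508.7, 609.8, 233.1 and 456.1 CPM in sham and 154.1, 99.1, 210.5 and 175.0 CPM in RYGB livers, and fell by 1.46 ± 0.30 (SE) on the log2 scale with an adjusted p of 0.0170 by limma. Slco1a4 had 19.4, 13.2, 60 and 14.9 CPM in sham and 88.0, 79.2, 94.3 and 94.4 CPM in RYGB livers, and rose by 1.96 ± 0.37 (SE) with an adjusted p of 0.0138. In both genes the groups were apart, as for 16.4% of all genes tested, and sham 3 was the sham liver nearest to the RYGB livers. The efflux pumps Abcc4 and Abcb1a rose from low levels, with log2 changes of 1.05 (adjusted p 0.0483) and 1.04 (adjusted p 0.0131) by limma. Abcc4 lost the call when any library other than RYGB 4 was left out, with adjusted p up to 0.113. It also lost the call after scaling by the median ratio (adjusted p 0.0689), but not after scaling to the hepatocyte markers (0.042).

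Among regulators, Ppargc1a, a coactivator of nuclear receptors, rose from 13.4 ± 1.87 to 22.9 ± 4.35 CPM (SD, n = 4 and 4; log2 change 0.72, adjusted p 0.0195 by limma). Its adjusted p was 0.0556 after scaling by the median ratio and 0.0249 after scaling to the hepatocyte markers. Without sham 1, sham 2 or sham 4 it was 0.0567, 0.052 and 0.0546. The bile acid receptor gene Nr1h4 (FXR) had 139.5 to 180.6 CPM in sham and 146.5 to 162.5 CPM in RYGB livers (log2 change -0.02 ± 0.11, adjusted p 0.945). Its target Nr0b2 (SHP), a repressor of Cyp7a1, had 20.4, 14.6, 12.2 and 35.0 CPM in sham and 8.9, 6.5, 19.9 and 6.9 CPM in RYGB livers. RYGB 3 lay within the sham range, and the log2 change of -0.92 ± 0.36 had an adjusted p of 0.129 by limma. Klb, the partner of Fgfr4, had 26.5 ± 4.79 CPM in sham and 36.9 ± 9.58 CPM in RYGB livers (log2 change 0.44, adjusted p 0.143). Sult1a1, a sulfotransferase, rose with a log2 change of 0.65 and an adjusted p of 0.0499 by limma, just inside the threshold. It lost the call when any library other than sham 1 was left out (adjusted p up to 0.117). Sult1a1 also lost it after scaling by the median ratio (adjusted p 0.177), but not after scaling to the hepatocyte markers (0.0285).

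Other groups of liver genes moved with the operation. Of 12 male-biased liver genes 9 fell and none rose, with a median log2 change of -1.78 and a summed level of 14552, 10582, 4766 and 8496 CPM in sham livers 1 to 4 against 2410 to 2867 CPM in RYGB livers. Slco1a1 is on that list. Of 12 female-biased genes 4 were tested and 2 rose. The summed level of the 4 was 273 CPM in sham 3, the highest of all 8 livers, and 20.9 to 52.6 CPM in the other sham livers. The count of male-biased genes that fell was 9 under both scalings as well. For Cyp39a1, Slco1a1 and Slco1a4, sham 3 was also the sham liver nearest to the RYGB livers. The part of the sex-biased genes in the fall of Cyp7b1, and in the changes of Cyp39a1, Slco1a1 and Slco1a4, was not tested. Without sham 3 the log2 change of Cyp7b1 was -1.23 with an adjusted p of 0.00586 by limma. That fit does not test this part, because sham 3 had the lowest male-biased sum of the sham livers and less Cyp7b1 than sham 1 and sham 2.

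Markers of recruited macrophages and neutrophils rose in RYGB livers. Of 7 recruited macrophage markers 6 rose, with a summed level of 22.2 to 34.1 CPM in sham and 102 to 204 CPM in RYGB livers. Of 6 neutrophil markers 4 rose, with 11.8 to 19.4 CPM in sham and 39.1 to 579 CPM in RYGB livers. After scaling by the median ratio 1 neutrophil marker rose, and after scaling to the hepatocyte markers 5 did. The highest neutrophil sum was that of RYGB 2. Of 9 Kupffer and macrophage markers 2 rose, of 8 stellate and fibroblast markers 2 rose, and of 5 erythroid markers 1 fell. None of the 14 hepatocyte, 10 pericentral, 7 endothelial, 2 lymphocyte or 4 tested cholangiocyte markers passed the test, 1 of 11 periportal markers rose, and the bile duct markers Krt7 and Cftr were not listed. The estimates of all 7 endothelial markers were above 0, with a median log2 change of 0.68. With the sequencing lane in the fit, 4 of the 7 endothelial and 5 of the 9 Kupffer and macrophage markers rose. In bulk liver, fewer hepatocytes and less RNA per hepatocyte cannot be told apart. With libraries scaled to the hepatocyte markers the log2 change of Cyp7b1 was -1.06 with an adjusted p of 0.0071 by limma. The part of the immune markers in the other values was not tested.

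The genes whose profile over the 8 livers was most like that of Cyp7b1 were Col5a3 and Alas2. Likeness was the root mean square difference of log2(CPM + 1) after the sham mean of each gene was subtracted, and it was 0.14 for Col5a3 and 0.19 for Alas2. Their log2 changes were -1.12 ± 0.13 (SE; adjusted p 0.00126) and -1.06 ± 0.13 (SE; adjusted p 0.00209) by limma. Col5a3 encodes a collagen chain, and Alas2 the erythroid enzyme that opens heme synthesis.

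Outside the liver, Cyp7a1, Cyp8b1, Slc27a5, Abcb11 and Slc10a1 were listed in none of the other 5 tables, and Cyp27a1 was listed in all. The tables hold only genes that reached 1 CPM in a number of libraries no smaller than the smaller group, so an unlisted gene was low and need not be absent. Of the 12 pairs of a gene and a tissue outside the liver, 11 could be tested and 1 changed, Cyp27a1 in ileum. Among all genes tested 0.00922% changed in duodenum, 9.81% in jejunum, 7.97% in ileum, 37.2% in subcutaneous white adipose tissue (WAT) and 0% in muscle. Levels of different tissues stand side by side here without a test, because each table was normalized on its own.

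Cyp27a1 in ileal villi had 122.7, 59.8, 47.4, 139.0 and 81.9 CPM in sham and 29.7, 20.7, 31.0, 39.7 and 50.3 CPM in RYGB mice (libraries 1 to 5). The groups touched only between sham 3 and RYGB 5. It fell by 1.31 ± 0.30 (SE) on the log2 scale, with an adjusted p of 0.0250 by limma. The call was lost when any of 4 of the 10 libraries was left out (RYGB 2, sham 1, sham 4 or sham 5), with adjusted p of 0.0522 to 0.0625. All ileal RYGB libraries were on lane 1 and all ileal sham libraries on lanes 2 and 3, so that lane and operation cannot be told apart in ileum. In jejunal villi sham libraries had 123.7, 28.4, 47.9 and 61.8 CPM and RYGB libraries 19.9, 31.3 and 29.6 CPM (log2 change -1.08 ± 0.41, adjusted p 0.134 by limma), and without sham 2 the adjusted p was 0.0361. In duodenal villi, which food no longer reaches after RYGB, the sham libraries had 21.3, 20.4, 26.1 and 110.6 CPM and the RYGB libraries 58.2, 92.2 and 127.1 CPM. There sham 4 stood inside the RYGB range, and the log2 change was 1.36 ± 0.57 with an adjusted p of 0.249 by limma (1.92 and 0.0166 without sham 4). Leaving out sham 4 also raised the calls over all duodenal genes, from 1 to 778 of 10854. The estimate for Cyp27a1 was thus above 0 in duodenum and below 0 in jejunum and ileum, and the difference between the segments was not tested.

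**Figure D5:**
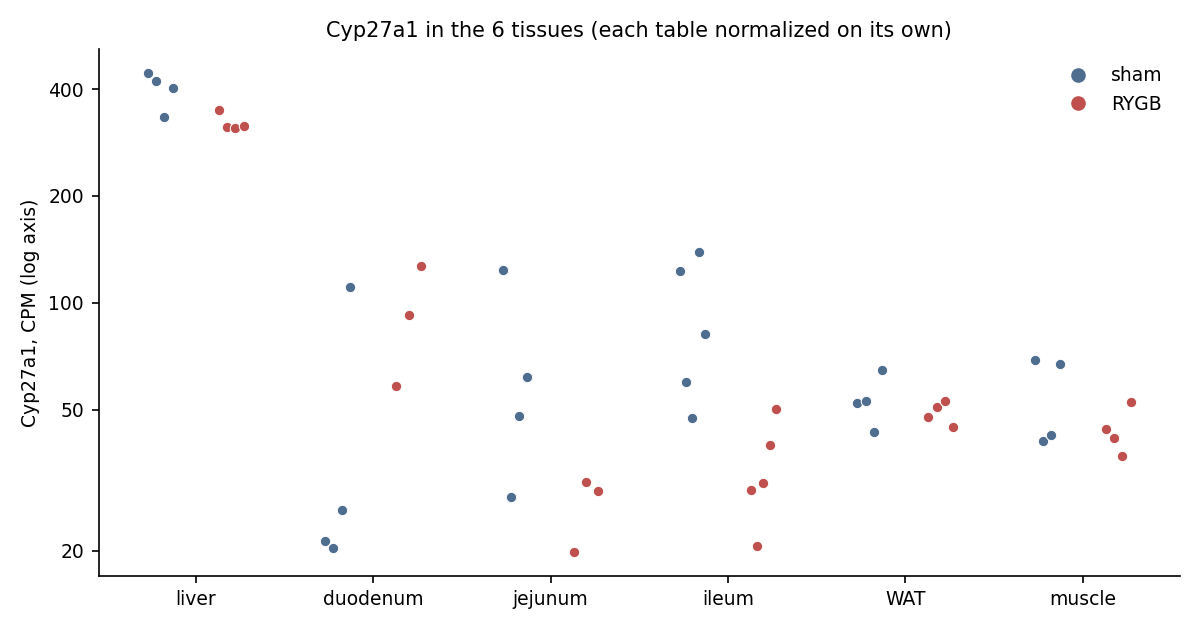
Cyp27a1 level in each library of the 6 tissues, in CPM on a log axis. Points are single libraries, with 4 sham and 4 RYGB in liver, WAT and muscle, 4 and 3 in duodenum and jejunum and 5 and 5 in ileum. The liver stands above every other tissue, with 310.5 CPM or more, and the ileal RYGB points lie below most sham points.

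In WAT, Cyp27a1 had 43.4 to 64.5 CPM in sham and 44.8 to 52.8 CPM in RYGB mice (log2 change -0.10, adjusted p 0.523 by limma). In skeletal muscle it had 40.8 to 69.2 and 37.0 to 52.4 CPM (log2 change -0.29, adjusted p 0.535). Cyp7b1, which fell in liver, was near the limit of listing in WAT, with 1.3 to 2.6 CPM in sham and 2.1 to 3.0 CPM in RYGB mice, and its log2 change of 0.36 ± 0.19 did not pass the test (adjusted p 0.144). In muscle Abcb4 had 178.4 to 238.3 CPM in sham and 208.1 to 224.2 CPM in RYGB mice (log2 change 0.10, adjusted p 0.674). In WAT Abcb4 had 8.7, 8.2, 7.8 and 14.6 CPM in sham and 6.7, 7.1, 5.6 and 3.4 CPM in RYGB mice. These groups did not overlap, as for 41.2% of all WAT genes, and the log2 change of -0.69 ± 0.25 had an adjusted p of 0.0538 by limma (0.0403 after scaling). Fgfr4 was listed in muscle at 1.8 to 2.6 CPM over both groups. Baat was at most 5.2 CPM in the 3 gut segments. In jejunum it had 1.0 to 1.9 CPM in sham and 0.3 to 0.9 CPM in RYGB mice, and did not pass the test (adjusted p 0.110 by limma). Baat reached the 1 CPM needed for listing there through sham libraries alone. Its lack of overlap, as for 22.2% of jejunal genes, therefore follows in part from the listing.

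The signal that reaches Fgfr4 comes from the ileum, where bile acids are taken up by Slc10a2, bound by Fabp6 and released by Slc51a and Slc51b, and where Nr1h4 drives Fgf15. Of these 6 genes and Nr0b2, 3 rose in RYGB ileum, beside 2.29% of all ileal genes, and none fell. Fgf15 had 7.1, 31.4, 24.5, 4.1 and 0.8 CPM in sham and 9.1, 41.6, 33.1, 23.3 and 25.0 CPM in RYGB libraries 1 to 5, and the log2 change of 1.45 ± 0.69 did not pass the test (adjusted p 0.206 by limma). Without sham 5 it was 0.86. Slc10a2 had 0.2 to 2.5 CPM in sham and 1.6 to 53.7 CPM in RYGB ileum, a log2 change of 2.30 ± 0.64 with an adjusted p of 0.0474 (1.68 without RYGB 3). Nr0b2 rose by 1.65 ± 0.37 (adjusted p 0.0235) and Slc51b by 0.74 ± 0.20 (adjusted p 0.0457). Slc10a2 and Nr0b2 reached 1 CPM in every RYGB ileal library but not in every sham library, so their listing leaned on the RYGB group. All these groups overlapped, the calls rested on single libraries, and here too the groups shared no lane. Slc10a2 kept its call only without RYGB 3 or RYGB 4, Slc51b only without RYGB 5, sham 2 or sham 4, and Nr0b2 lost it without RYGB 2, sham 1, sham 3 or sham 4, with adjusted p up to 0.110, 0.105 and 0.0623. The split of ileal calls changed with scaling, from 246 higher and 610 lower to 676 and 609, and after it Nr0b2 alone of these genes passed the test. Nr0b2 was thus below sham in the estimate for liver, where it did not pass the test, and above it in ileum, and the difference was not tested.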

How the data were processed

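RNA of 48 libraries from 6 tissues of RYGB and sham mice had been sequenced with a stranded mRNA kit, and the 8 liver libraries are the main subject here. The authors deposited 1 table per tissue with CPM values, counts scaled to the library's total, rounded to 0.1. The submitters' processing notes name HTSeq and GRCm38, and the aligner is not given in the sources used here. A gene with repeated lines was entered once (liver had 1 repeat), and 12 incomplete liver lines were left out. Column sums were then 925122 to 998777. Because the values are no counts, count models were not used and depth is unknown. Coordinates and exons are from GENCODE M21, promoters from RefSeq (GRCm38.p6).

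RYGB was compared with sham within a tissue by limma 3.58.1 (R 4.3.3, empirical Bayes with trend, two-sided) on log2(CPM + 1) where a gene averaged 1 CPM or more, with Benjamini-Hochberg adjustment over all genes of the tissue. The pseudocount of 1 understates changes of low genes. Tables and exact permutation tests used Python 3.11.15, pandas 2.3.3, numpy 2.4.6 and scipy 1.17.1, figures matplotlib 3.10.9. The fit was tested on simulated liver values. The 10 genes, gene lists and motifs were chosen with earlier results of these data known. Named are all 10 genes, from each pathway list the changed genes with the 4 largest changes, Nr0b2, Nr1h4, Klb and Fgf15, and the 2 genes most like each changed member. Cyp2c70, Slco1b2, Slco2b1, Fabp6, Slc51a, Slc51b, Slc10a2 and genes of the closing section were named after their values were seen. Alternatives varied the pseudocount, the minimum, the scaling, the lane (liver only), the replicate block, the trend and single libraries. Empirical Bayes without trend for single genes, and the pseudocount and minimum in ileum, were added after seeing the data.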

Additional observations from a re-analysis of the deposited data

Results flagged for a closer look

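Dixon's test at the 95% level was applied, on the log2(CPM + 1) scale, to the 40 groups of at least 4 libraries in which 1 of the 10 genes was measured. It marked 4 single libraries as far from the rest of their group, where chance gives about 2.0. Each gap is a share of the group's range on that log scale. In liver, Cyp8b1 was low in RYGB 2 (384.7 CPM, the next 618.1), with a gap of 0.935 of the group's range. Also in liver, Cyp27a1 was high in RYGB 1 (349.0 CPM, the next 314.6), with a gap of 0.888 of a narrow range. In duodenum, Cyp27a1 was high in sham 4 (110.6 CPM, the next 26.1), with a gap of 0.857. In WAT, Abcb4 was high in sham 4 (14.6 CPM, the next 8.7), with a gap of 0.83, just above the critical 0.829.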

How the results depend on the processing

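Of the 10 genes, 1 passed the test in liver, and 1 (Cyp7b1) to 2 did under the alternatives: 2 with the lane as a covariate and 2 with the replicate block (Abcb4 added, adjusted p 0.0450 and 0.0207). With 1 liver left out it was 1 to 3, with 3 without RYGB 1 (Abcb4 and Slc27a5 added) and 2 without sham 2 (Cyp7a1 added). Calls over all liver genes moved too, from 1016 to 1176 with the lane, 1484 without RYGB 1 and 494 without sham 2. Further pathway genes past the test in liver numbered 7, but 4 with a minimum of 10 CPM, which leaves out Abcc4 and Abcb1a, and 4 with scaling by the median ratio, 8 with scaling to the hepatocyte markers, 8 with the lane and 9 with the replicate block. With 1 liver left out they numbered 4 to 6, with 4 without sham 2 or without sham 4. Calls over all liver genes were 406 without sham 4, 933 with scaling by the median ratio and 719 with scaling to the hepatocyte markers. With the minimum of 10 CPM they were 601 of 8063 genes tested. Ileal signal genes numbered 3, but 1 after scaling, and 0 to 3 with 1 library left out (0 without sham 1 or sham 3, 1 without RYGB 1, RYGB 2 or sham 5). Calls over all ileal genes moved from 856 to 1285 after scaling, 447 without sham 1 and 336 without sham 3. Outside the liver 1 of the 10 genes passed, but 2 with scaling (Abcb4 in WAT) and 2 with the replicate block (Cyp27a1 in duodenum, where the block drops sham 4, which has no partner), and 0 to 2 with 1 library left out. Calls over all duodenal genes moved from 1 to 268 with the block and to 778 without sham 4. The cause of these moves was not tested beyond the libraries and genes named. The replicate numbers are shared between groups, and the correlations of same-numbered livers were 0.27, 0.17, -0.06 and 0.24. Livers with different numbers were not compared, so these values do not settle whether the numbers pair the mice. The main fit used no pairing. The block moved the liver calls over all genes from 1016 to 1776 and made Klb pass (adjusted p 0.0467), and Slc10a2 in ileum missed the threshold (0.0555). No log2 change that passed the test reversed among the 10 genes in liver, the 7 further pathway genes and the ileal genes past it. Other calls, such as those of Slc51b and Nr0b2 in jejunum, were not followed singly through the alternatives. Depth is unknown, and steps of 0.1 CPM limit genes near 1 CPM.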

Other observations

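Among bile acid genes that did not pass the test in liver, some had estimates near or above the smallest of those that did (Sult1a1, 0.65) in size. They are named here after their values were seen. Por, the reductase that supplies electrons to the P450 enzymes of bile acid synthesis, had 149 ± 25.8 CPM in sham and 237 ± 61.6 CPM in RYGB livers (log2 change 0.64, adjusted p 0.0725 by limma). Abcc3, a basolateral pump that returns bile acids to blood, had 144 ± 81.2 and 237 ± 52.1 CPM (log2 change 0.86, adjusted p 0.124). Sult2a8, a sulfotransferase of bile acids, was lower in every RYGB liver than in every sham liver, as for 3.05% of all genes tested. It had 545 ± 181 CPM in RYGB and 817 ± 105 CPM in sham livers, and its log2 change of -0.66 had an adjusted p of 0.126 by limma.

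In jejunal villi Slc51b, a subunit of the transporter that releases bile acids to blood, rose by 0.90 ± 0.21 (SE) on the log2 scale with an adjusted p of 0.0266 by limma, and its partner Slc51a had a log2 change of 0.01 ± 0.17 (adjusted p 0.983). Nr0b2 fell there by 2.25 ± 0.43 (adjusted p 0.0122), from 2.6, 10.1, 4.2 and 9.0 CPM in sham to 1.4, 0.0 and 0.2 CPM in RYGB libraries, while it rose in ileum. It reached the 1 CPM needed for listing in every sham library but in RYGB 1 alone, so its jejunal listing depended on the sham level. Neither jejunal call was followed through the alternatives. The difference between the segments was not tested.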
